A study of Mus musculus with 2 samples.

Results

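Motile cilia beat by means of the axoneme, a ring of microtubule doublets driven by dynein arms, and the mouse genome names many of its parts by family. Axonemal dynein heavy chains carry the Dnah symbols and are the motors. Dnaaf genes encode factors that assemble dynein arms in the cytoplasm before they enter the cilium, Rsph genes encode radial spoke proteins that relay signals to the arms, and Tekt genes encode tektins, filaments inside the doublet wall. Cfap (cilia and flagella associated protein) and Spag (sperm associated antigen) are looser names that also cover proteins with other jobs. The vomeronasal sensory neurons (VSNs) of the mouse carry microvilli rather than motile cilia, whereas multiciliated cells of the airway type use these genes at a high level.

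All genes whose symbol starts with Cfap, Dnah, Dnaaf, Tekt, Rsph or Spag followed by a digit were taken as members, wherever the measured values lay. The rule gave 80 members of 32285 genes in the table: 33 Cfap, 16 Dnah, 13 Spag, 8 Rsph, 5 Dnaaf and 5 Tekt genes. At least 1 unique molecular identifier (UMI, the count of 1 captured RNA molecule) was found for 78 of them, and Cfap97d1 and Spag17os had none in any barcode. A name does not make an axoneme part: Dnah2os and Spag17os are antisense transcripts, Spag11a and Spag11b encode secreted defensin-like peptides, Spag5 encodes the spindle protein astrin, and Spag9 encodes a scaffold for kinase signalling and vesicle transport.

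The data were single cell RNA-sequencing of the whole vomeronasal organ (VNO) of wild type male C57BL/6J mice at postnatal day (P) 60. A total of 5 mice went into 2 libraries, both labelled wild type, and the sources do not say how the animals were divided between them. No treatment or genotype was compared, so the comparisons below are between cell groups, each summed within library 1 and library 2. The libraries held 12814 and 11270 barcodes with 108005626 and 95442231 UMIs, and 33 barcode sequences occurred in both. Because 1 group of cells is always set against another from the same 2 libraries, p-values measure the spread between 2 libraries of pooled animals only. Members were left out of the genes used for clustering, although the groups were drawn from other genes of the same cells.

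Groups were clusters named from marker lists. The study's limit of 5% mitochondrial UMIs kept 10592 cells, among which 49 and 44 cells of library 1 and 2 formed a Neurod1 precursor-like cluster. The neurons were 251 and 213 immature neuron-like cells and 388 and 317 mature VSN-like cells, the last divided into apical (333 and 263) and basal (55 and 54). No cluster was named ciliated-like at that limit. The closest held 153 cells and had 11 of the 12 ciliated markers raised, but it stayed unnamed because its median of 1093 UMIs was below the limit for naming, the median of all cells kept divided by 3 (2223 and 2217 UMIs by library), and none of those markers was among its 10 leading genes. With doublets left out at the same limit, a ciliated-like cluster of 14 and 18 cells was named. At a limit of 20%, which kept 21974 cells, 178 ciliated-like cells (96 and 82) formed 1 cluster in which all 12 ciliated markers were raised. At the 5% limit, no cluster had 3 or more raised markers of olfactory neurons.

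The ciliated-like cells had a median of 10140.5 UMIs, of which a median of 66.5 came from members, and none was called a doublet. Their mitochondrial share had a median of 8.997%, with quartiles at 5.82% and 14.1%. Only 34 of the 178 were at or under 5%, and 104 were at or under 10%. The median share was 3.72% in precursor-like, 3.14% in immature neuron-like, 3.46% in mature VSN-like and, at the 20% limit, 7.14% in sustentacular-like cells. The part of the mitochondrial share in the members' values was not tested.

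**Figure D1:**
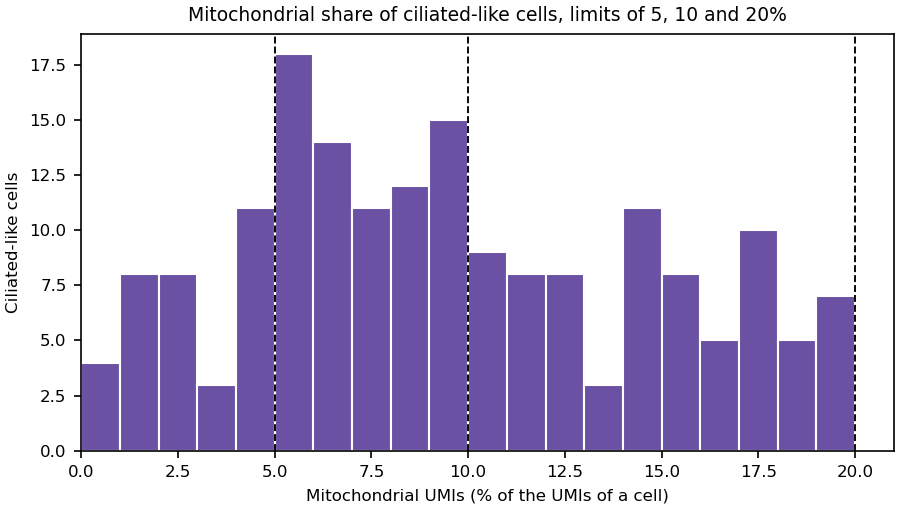
Histogram of the mitochondrial share of each of the 178 ciliated-like cells, as a percentage of its UMIs on the x axis in bins of 1 percentage point, with the number of cells on the y axis and dashed lines at limits of 5, 10 and 20%. Only 34 cells lie at or under the 5% limit, and the cells are spread up to the limit of 20%.

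Tekt1, Tekt2, Cfap97d2 and Cfap206 were higher in precursor-like than in mature VSN-like cells, Cfap97d2 on only 8 UMIs against 3. Their promoter sequences are printed to show which of them hold GTTGCC, the half-site bound by RFX proteins, regulators of ciliary genes. Each is the 250 bases before the start that RefSeq gives (GRCm38.p6), read 5′ to 3′ along the gene, with GTTGCC or its reverse complement in capitals. Tekt1 was taken from chr11:72361883-72362132 on the minus strand, Tekt2 from chr4:126325689-126325938 on the minus strand, Cfap97d2 from chr8:13705639-13705888 on the plus strand and Cfap206 from chr4:34730207-34730456 on the minus strand.
Tekt1: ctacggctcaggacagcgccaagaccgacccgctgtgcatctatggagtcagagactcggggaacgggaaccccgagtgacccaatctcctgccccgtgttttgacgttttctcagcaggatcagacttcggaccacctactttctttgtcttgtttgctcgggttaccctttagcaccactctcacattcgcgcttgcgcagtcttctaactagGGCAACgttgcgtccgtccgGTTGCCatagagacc
Tekt2: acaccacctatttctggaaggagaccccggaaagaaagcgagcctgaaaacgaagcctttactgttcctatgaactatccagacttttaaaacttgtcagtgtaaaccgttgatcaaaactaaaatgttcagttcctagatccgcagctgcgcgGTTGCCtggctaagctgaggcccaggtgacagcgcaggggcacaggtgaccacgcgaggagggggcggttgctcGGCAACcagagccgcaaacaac
Cfap97d2: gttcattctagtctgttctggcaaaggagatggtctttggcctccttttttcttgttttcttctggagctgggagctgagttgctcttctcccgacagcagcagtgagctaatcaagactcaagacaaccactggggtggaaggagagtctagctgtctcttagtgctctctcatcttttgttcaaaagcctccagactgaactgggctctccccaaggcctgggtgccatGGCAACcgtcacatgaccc
Cfap206: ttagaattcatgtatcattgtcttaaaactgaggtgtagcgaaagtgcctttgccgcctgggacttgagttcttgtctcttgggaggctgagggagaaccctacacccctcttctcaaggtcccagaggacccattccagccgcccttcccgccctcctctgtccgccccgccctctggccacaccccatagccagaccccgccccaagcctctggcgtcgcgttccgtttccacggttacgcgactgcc
The first bases of the Tekt1 sites lie 35 and 15 bases before the start, and those of Tekt2 lie 96 and 22 bases before it. Cfap206 has no match in this window. The motif was found on either strand in 2833 of 27025 promoters of genes in the table (10.5%) and in 18 of the 63 members with a promoter in the RefSeq table (28.6%). Among the members higher in precursor-like than in mature VSN-like cells, described further on, 7 of 13 with a promoter held it, and among those lower there 2 of 10 did. GTAAACA, a forkhead motif, was in 4 of 63 member promoters against 3.09% of all, and CAGATG, an E-box, in 7 of 63 against 14.5% of all. Such matches describe letters in the window and not binding.

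To ask where the members are on, cells were thinned to 3000 UMIs each, and a member was called on in a group when at least 5% of thinned cells in each library held a UMI and the pooled exact binomial interval lay above that of macrophage-like cells. These intervals cover counting error only. Macrophages have no motile cilia but express some members, with a UMI of Spag9 in 20.4% and of Spag7 in 11.96% of thinned cells, so a member that is not on by this rule can still be expressed. By this rule 49 of the 80 members were on in ciliated-like cells, where 12.1% of the 24223 genes with a UMI in any barcode were on. In precursor-like cells 13 were on against 11.8% of genes, in immature neuron-like cells 10 against 16.1%, and in mature VSN-like cells 12 against 17.2%. A second random draw of the thinning, chosen after seeing the data, gave 50, 12, 10 and 9 members in the same order. In the first draw, 37 were on in the ciliated-like cells and in none of the other groups, 6 were on in all 4, and 25 were on in none. Such overlaps were not counted over all genes, so how usual they are is not known. They are counts past a threshold, and the difference between groups was not tested by them. Dnaaf5, 1 of the 37, held a UMI in 8.67% of thinned ciliated-like and 7.78% of thinned precursor-like cells, the latter at 10.2% and 4.88% by library, and at a share of 2% in place of 5% the precursor-like count was 26.

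The ciliated-like cells had members of every family on: 25 of 33 Cfap, 10 of 16 Dnah, 4 of 5 Dnaaf, 4 of 8 Rsph, 4 of 13 Spag and 2 of 5 Tekt. In precursor-like cells 1 of 16 Dnah genes, Dnah7a, was on, and in either neuron group none was. Dnah5, the outer arm heavy chain, held a UMI in 67.3% of thinned ciliated-like cells (95% interval 59.2 to 74.8), in 3.33% of precursor-like cells (0.693 to 9.43) and in none of 701 mature VSN-like cells, which allows up to 0.525%. Without thinning, the shares of Dnah5 were 87.6%, 9.68% and 0.567%. In macrophage-like cells thinned alike, at the 5% limit, it was in none of 1120, which allows up to 0.329%. Thinning left out 28 ciliated-like, 3 precursor-like, 6 immature neuron-like, 4 mature VSN-like and 566 macrophage-like cells.

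The 6 members on in all 4 groups were Cfap20, a protein of the inner doublet wall that is also found outside cilia, Cfap36, Cfap69, known from olfactory cilia, Cfap298, needed for dynein assembly, and the radial spoke head genes Rsph1 and Rsph9. Being on in all groups did not mean being equal. Cfap298 was in 69.3% of thinned ciliated-like cells, 26.7% of precursor-like cells, 17.2% of immature neuron-like cells and 20.1% of mature VSN-like cells. Rsph9 ran differently, at 43.3%, 14.4%, 17.0% and 61.9% in the same order. The 4 members on in precursor-like but not in immature neuron-like cells were Cfap45, Cfap206, Dnah7a and Tekt1.

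Members on in none of the 4 groups included genes also expressed in macrophage-like cells and genes that were nearly silent. Spag7, in 48.9% of ciliated-like cells before thinning, belongs to the first kind: at 73.4 and 74.8 CPM (UMIs of a gene divided by all UMIs of its group and library, times 1000000) in ciliated-like cells, it was at 72.6 and 68.8 CPM in precursor-like cells and still at 49.1 and 38.8 CPM in macrophage-like cells. Cfap99 and Spag11a belong to the second, Spag11a with no UMI in any of the groups named and Cfap99 with 1 UMI in all, in a sustentacular-like cell. Tekt3 and Tekt5, known from sperm tails, had 2 and 4 UMIs in the ciliated-like cells. Among near copies, Spag6l, of the central pair, was at 116 and 115 CPM there while Spag6 had no UMI, and it is not stated how reads shared by both were counted. The same holds for Dnah7a, Dnah7b and Dnah7c, whose values are given with that uncertainty.

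Summed over all members, ciliated-like cells held 6276 and 6250 CPM in library 1 and 2, precursor-like cells 1690 and 1514, immature neuron-like cells 1182 and 1120, mature apical VSN-like cells 1935 and 1843 and mature basal VSN-like cells 2015 and 1910. Sustentacular-like cells held 491 and 476 CPM, and macrophage-like cells 284 and 269. The sum was thus larger in mature neurons than in precursor-like cells, but a few genes made it. Cfap20, Cfap36 and Rsph9 gave 57.0% and 58.6% of the members' UMIs in mature VSN-like cells, while the 3 leading members gave 27.5% and 32.2% in precursor-like and 21.7% and 19.9% in ciliated-like cells. By family, the Dnah genes summed to 1229 and 1414 CPM in ciliated-like, 61.9 and 71.6 in precursor-like and 23.1 and 28.2 in mature VSN-like cells. The Tekt genes gave another picture, with 297 and 264 CPM, 190 and 132 CPM, and 0.711 and 0.931 CPM. These UMIs are counted once per molecule at the 3′ end and were not divided by gene length.

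**Figure D2:**
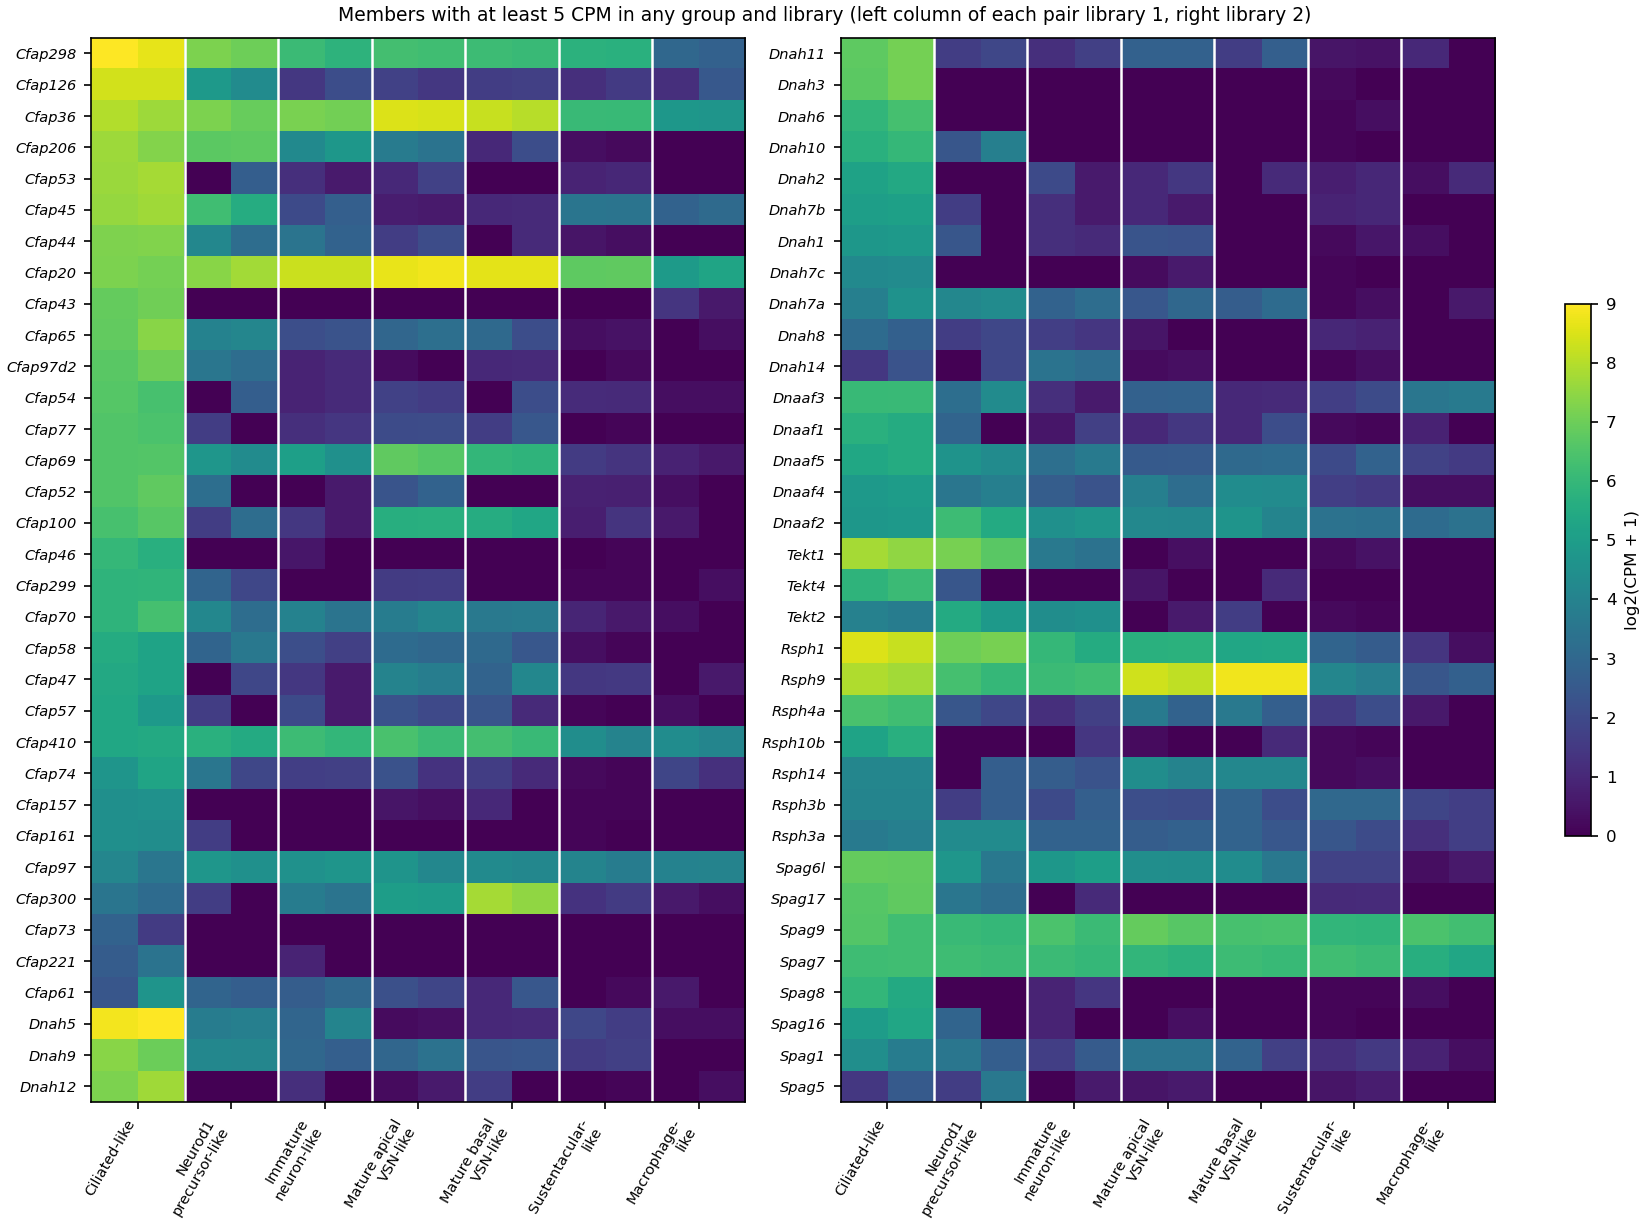
Heatmap of the 68 members that reached 5 CPM in any group and library, as log2(CPM + 1) from 0 (dark) to 9 (yellow), with 1 row per gene ordered by family and 2 columns per cell group for library 1 and library 2. The ciliated-like columns are bright for most rows, the precursor-like columns for a subset with Tekt1, Cfap206, Cfap45 and Rsph1, and the mature VSN-like columns for a few such as Cfap20, Cfap36 and Rsph9.

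In ciliated-like cells, nearly every member tested was more abundant than in sustentacular-like cells, the glia-like supporting cells of the sensory epithelium, taken from the same 20% limit. The quasi-likelihood test of edgeR with Benjamini-Hochberg adjustment over 15035 genes called 64 of the 67 members tested higher, where 23.4% of all genes tested were. None was lower, against 24.5% of all genes, and none was lower at an unadjusted p under 0.05 or with DESeq2. The median log2 fold change of the members tested was 6.38, or 6.35 with members at 0 UMIs set to their bound, against -0.11 over all genes tested. The 3 members tested without a call were Cfap20 at 0.28, Spag7 at -0.08 and Cfap97 at -0.18.

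Cfap43, which tethers an inner arm dynein, had 135 and 136 UMIs in ciliated-like cells and none in 1693 sustentacular-like cells, at least 951-fold higher by the floor of 3 UMIs over the group. Tekt4 was at 66 and 71 UMIs against none, at least 481-fold higher. Dnah12, an inner arm heavy chain, was at 148 and 209 CPM against 1 UMI in all, a ratio of 4063 with a counting interval of 725 to 160900. Tekt1 was at 222 and 181 CPM in ciliated-like and at 0.168 and 0.360 CPM in sustentacular-like cells, with a log2 fold change of 9.37 ± 0.28 (SE, n = 2 libraries a group) and an adjusted p of 3.7e-13 in edgeR. These genes were picked for their large change, so values that do not overlap between the groups follow from that choice.

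Other members past the threshold with the largest changes were Cfap77 (10.36), Dnah3 (10.03), Cfap97d2 (9.97), Cfap46 of the central pair (9.69), Dnah10 (9.68) and Cfap206 (9.47), all as log2 fold changes with each library in the same direction. Dnah5 and Cfap298 were the most abundant members, at 455 and 507 CPM and at 539 and 401 CPM. Rsph1 followed at 366 and 300 CPM and Cfap126, a protein of the doublet wall, at 336 in both. Among the assembly factors Dnaaf3 was highest, at 66.5 and 68.0 CPM.

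Other cilium genes were described by lists. Of 43 axoneme genes outside the 6 families that were tested, 42 were higher in ciliated-like cells and none lower, with a median log2 fold change of 6.93. Of 30 genes for intraflagellar transport, the traffic along the axoneme, 29 were higher and none lower, with a smaller median of 2.34. All 15 regulators of multiciliated cell formation were higher. Foxj1, Mcidas and Ccdc78 of this list were among the markers that named the ciliated-like cells, so their calls are no separate evidence. Of 9 BBSome genes, which sort membrane proteins of cilia, 7 were higher and 1 lower. Of all genes in this comparison, 23.4% were higher and 24.5% lower. In the 2 lists with a count of 0 given here, no gene was lower at an unadjusted p under 0.05 in edgeR or with DESeq2 either.

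Between the Neurod1 precursor-like cells and the neurons a smaller part of the members tested was called, and many other genes were called too. Against immature neuron-like cells, 12 of 39 members tested were higher, where 8.42% of 11842 genes were, and 3 were lower, where 11.5% of genes were. Against mature VSN-like cells, 14 of 49 were higher, where 17.6% of 13180 genes were, and 10 were lower, where 25.3% were. The second pair of counts has members moving in both directions, with a median log2 fold change of 0.0012 over the members tested (0.026 at the bounds) against -0.26 over all genes, and the first has a median of 0.91 against -0.07. Both comparisons use the same precursor-like sums.

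Tekt1, the tektin gene at chr11:72344722-72362442 on the minus strand of mm10, made the largest change against mature VSN-like cells, while Spag17, Cfap45 and Dnaaf3 had larger ones against immature neuron-like cells. This span, from the GENCODE annotation, reaches past the RefSeq start used for its promoter, so that window lies inside the span. Tekt1 had 66 and 37 UMIs in precursor-like cells of library 1 and 2, which is 141 and 102 CPM, 11.5 and 9.499 CPM in immature neuron-like cells, and 0 and 1 UMI in 388 and 317 mature VSN-like cells. Both precursor-like values were above those of the neurons, for a gene picked by its large change. The log2 fold change was 3.42 ± 0.29 (SE) against immature neuron-like cells (adjusted p = 2e-07, edgeR) and 9.47 ± 0.54 against mature VSN-like cells (adjusted p = 1.6e-05, edgeR), where 103 UMIs against 1 give a ratio of 1229 with a counting interval of 216 to 48990.

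Cfap45, another protein inside the doublet wall, lies at chr1:172520801-172545870 on the plus strand. It was at 74.7 and 46.8 CPM in precursor-like, 3.09 and 5.59 CPM in immature neuron-like and 0.711 and 0.698 CPM in mature VSN-like cells. The log2 fold changes were 3.75 ± 0.41 and 6.13 ± 0.43 (SE), with adjusted p of 4.1e-06 and 3.7e-05 in edgeR. Cfap206, a protein at the base of a radial spoke, at chr4:34688559-34730206 on the minus strand, was at 105 and 107 CPM against 18.1 and 26.3 CPM in immature neuron-like and 10.5 and 8.38 CPM in mature VSN-like cells. Its log2 fold changes were 2.17 ± 0.26 and 3.24 ± 0.24 (SE), with adjusted p of 9.9e-06 and 5.2e-05 in edgeR. The precursor-like values of both genes, also picked by their change, lay above every neuron value.

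Rsph1, at chr17:31255019-31277383 on the minus strand, was at 128 and 143 CPM in precursor-like, 62.7 and 45.8 CPM in immature neuron-like and 49.2 and 50.5 CPM in mature VSN-like cells. Its log2 fold changes of 1.198 ± 0.22 and 1.21 ± 0.15 (SE) were alike in both comparisons. Unlike Tekt1, the gene stayed on in the neurons. Rsph3a of the spoke stalk (19.2 and 19.3 CPM in precursor-like cells) was also higher in both, by 1.52 and 1.56 on the log2 scale, while its near copy Rsph3b had 1 and 2 UMIs in the precursor-like cells.

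Assembly factors and dyneins were higher by small folds or on low counts. Dnaaf2 was at 70.4 and 44.0 CPM in precursor-like cells against 22.1 and 25.1 CPM in immature neuron-like cells, a log2 fold change of 1.21 ± 0.31 (SE) that lost its call with DESeq2 and without library 1 of the precursor-like cells. Dnaaf3 (4 and 7 UMIs against 3 and 1) was higher by 3.53 than in immature neuron-like cells. However, macrophage-like cells held it at 10.5 and 11.7 CPM, against 8.54 and 19.3 CPM in precursor-like cells. It overlaps Tnni3 on the same strand, as Cfap43 does Itprip and Rsph10b does Pms2. Dnaaf5 (23.5 and 19.3 against 5.33 and 5.59 CPM) was higher by 1.75 than in mature VSN-like cells. Dnah5 was higher than in mature VSN-like cells by 4.66, on 6 and 5 UMIs against 2 and 2. In the same comparison Dnah7a, at 17.1 and 19.3 CPM, was higher by 1.40. Spag17 of the central pair was higher than in immature neuron-like cells on 8 UMIs against 2, a ratio of 19.5 with a counting interval of 3.89 to 188.

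The remaining Cfap genes higher in precursor-like cells were Cfap126 (log2 3.12 and 3.25 against immature and mature cells), Cfap97d2 (3.06 and 4.57), Cfap65 (1.95 against immature) and Cfap44 (2.30 against mature). Cfap298 was higher by 1.06 and 0.67. Cfap126 had 13 and 7 UMIs in the precursor-like cells, and Cfap97d2 had 5 and 3, so these rest on few molecules.

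The members lower in precursor-like than in mature VSN-like cells were 10 of 49, where 25.3% of all genes were lower. Not all are particular to neurons, as Spag9 was at 86.45 and 76.17 CPM in macrophage-like cells. Rsph9 was at 81.1 and 63.3 CPM in precursor-like and at 345 and 319 CPM in mature VSN-like cells, a log2 fold change of -2.41 ± 0.18 (SE, adjusted p = 4.5e-05, edgeR). Cfap69 was at 25.6 and 19.3 CPM against 101 and 89.4 CPM (-2.29 ± 0.24). Cfap36 (-1.58), Cfap20 (-1.39), Cfap410 (-0.89) and Spag9 (-0.88) followed. Cfap300, an assembly factor of dynein arms, had 1 UMI in all precursor-like cells against 617 in mature VSN-like cells, a ratio of 51.7 with a counting interval of 9.25 to 2046. Cfap100, which regulates an inner arm, was at 2.13 and 8.26 CPM against 48.7 and 47.5 CPM (-3.53), Cfap47 had 1 UMI against 137 and Rsph14 had 2 against 179. Rsph14 overlaps Gnaz, Cfap100 overlaps Zxdc and Rsph9 overlaps Mrps18a on the opposite strand.

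Against immature neuron-like cells only 3 members were lower by this test, namely Cfap300 (1 UMI against 47), Dnah14 (1 against 37) and Cfap20 (169 and 215 against 308 and 306 CPM, -0.80). Dnah14 overlaps Lbr on the opposite strand. The count of 15 members called in this comparison dropped to 8 with DESeq2, to 9 without library 1 of the precursor-like cells, to 5 without library 2 of them and to 9 without library 1 of the immature neuron-like cells. Spag17, Cfap97d2, Cfap65, Rsph3a, Dnaaf2, Cfap300 and Dnah14 kept their direction but lost their call with DESeq2. Each of these 7, and Cfap20, also lost it when at least 1 of the 4 sums was left out, and Cfap65, Rsph3a and Dnah14 lost it whichever was. The count of 24 against mature VSN-like cells stayed between 18 and 25 when a library was left out. In that comparison Cfap44, Dnaaf5 and Rsph3a lost their call without library 1 of the precursor-like cells, and Cfap410 without library 2 of them or library 1 of the mature VSN-like cells.

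**Figure D3:**
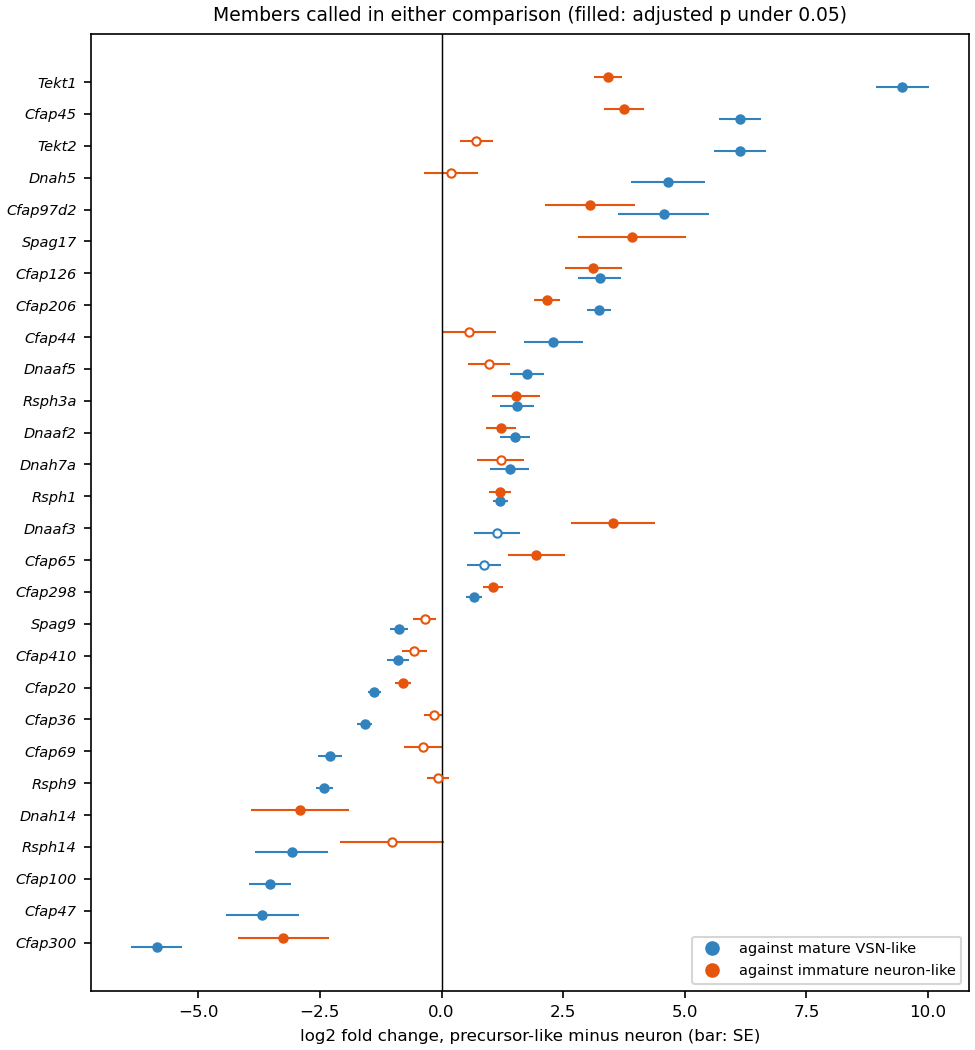
Log2 fold changes, precursor-like minus neuron, of the 28 members called in either comparison, with bars of 1 SE, against mature VSN-like cells in blue and immature neuron-like cells in orange. Filled points have an adjusted p under 0.05 in edgeR, and Tekt1 stands at the right end with 9.47 while Cfap300 stands at the left end with -5.86.

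The tektin, spoke and doublet genes were spread over the precursor-like cluster rather than held by a few cells. Of its 93 cells, 59 held a UMI of Tekt1 (37 and 22 by library), 54 of Cfap206, 58 of Rsph1, 38 of Cfap45 and 25 of Tekt2. At least 1 of these 5 genes was found in 86 cells, all 5 in 6 cells and none in 7. No cell held more than 5 UMIs of any of them. Neurod1, the neuronal transcription factor that helped to name the cluster, was in 91 of the 93 cells, and 1 of the 93 was called a doublet.

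Ciliated markers were present in the same cluster in part. Of the 12 ciliated markers, 9 and 8 had a UMI in precursor-like cells of library 1 and 2. This count alone does not set them apart. It was 12 and 9 in sustentacular-like, 10 and 9 in macrophage-like, and 8 and 7 in both immature neuron-like and mature VSN-like cells. The summed level was 1312 and 1219 CPM in precursor-like cells against 4392 and 4127 CPM in ciliated-like cells. It was 357 and 412 CPM in immature neuron-like, 251 and 235 CPM in mature VSN-like, 48.4 and 52.0 CPM in sustentacular-like and 8.59 and 13.0 CPM in macrophage-like cells. The largest parts of the precursor-like sum were Mlf1, at 621 and 449 CPM, and Dynlrb2, at 294.5 and 327.5 CPM. Both were also found in immature neuron-like cells, at 134 and 152.5 CPM and at 78.1 and 98.9 CPM. Foxj1, the master regulator of motile cilia, was at 51.2 and 41.3 CPM in precursor-like cells and was found in 25 of the 93 cells. Sntn, Tmem212 and Ccdc78 had no UMI in the precursor-like cells, although Sntn was at 427 and 442 CPM in ciliated-like cells. Clca3b, a gene chosen after its values were seen, was at 1945 and 1704 CPM in ciliated-like cells and also had no UMI in precursor-like cells. Neurod1 in turn was at 1650 and 1582 CPM in precursor-like cells and had no UMI in ciliated-like cells.

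Set directly against ciliated-like cells, with both groups taken at the 20% limit, precursor-like cells had 54 of 66 members tested lower, where 33.2% of 11963 genes were, and 2 higher, where 23.3% were. The members tested had a median log2 fold change of -2.96, or -2.76 at the bounds, against -0.21 over all genes. This comparison shares its ciliated-like sums with that against sustentacular-like cells, and most of its precursor-like cells with those above. The gaps ranged from differences that did not pass the test to members without any UMI in precursor-like cells.

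At the near end, Cfap206 was at 119 and 124 CPM in precursor-like and at 204 and 161 CPM in ciliated-like cells, a log2 fold change of -0.86 ± 0.21 (SE, adjusted p = 0.00052, edgeR). Tekt1 was at 149 and 104 against 222 and 181 CPM (-0.92). Rsph1 (-1.58), Cfap45 (-1.85) and Cfap298 (-1.97) were further below, each with both precursor-like values under both ciliated-like values. For Cfap20 (0.19), Rsph3a (0.07), Dnah7a (-0.15) and Cfap410 (-0.15) the difference did not pass the test, and precursor-like values of Rsph3a were 15.4 and 17.4 CPM against 12.1 and 13.6 CPM.

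At the far end, 11 members tested had no UMI in the precursor-like cells. They passed the filter of 10 UMIs through the ciliated-like sums alone and could only come out lower. They are part of the 66 members tested and of their median. The share of all genes tested without a UMI in precursor-like cells was not counted. Dnah12 was at least 47.1-fold lower than in ciliated-like cells, Cfap43 at least 33.1-fold, Dnah3 at least 32.2-fold, Dnah6 at least 18.6-fold, Cfap46 at least 15.1-fold, Spag8 at least 13.9-fold, Rsph10b at least 11.5-fold and Dnah2 at least 10.3-fold, by the floor of 3 UMIs over the precursor-like cells. Cfap157 and Dnah7c were at least 5.86-fold and 5.01-fold lower. Cfap221, the 11th, had 16 UMIs in the ciliated-like cells. Dnah5 was at 13.2 and 8.67 CPM against 455 and 507 CPM, a log2 fold change of -5.67 ± 0.28 (SE, adjusted p = 2.5e-22, edgeR). Dnah9 and Dnah11, also of the outer arm, had log2 fold changes of -3.43 and -5.78.

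The 2 members higher in precursor-like cells were Tekt2, at 48.3 and 28.9 against 14.7 and 12.6 CPM (1.26 ± 0.40, SE), and Dnaaf2, at 74.7 and 49.2 against 25.9 and 27.2 CPM (0.98 ± 0.31). Each kept its direction but lost its call with DESeq2, without library 1 of the precursor-like cells, at a 10% mitochondrial limit, and when precursors were taken as lineage cells with a UMI of Neurod1. With ciliated cells instead taken at the 5% limit as those with UMIs of at least 4 ciliated markers, 13 members were called, 7 of them lower, in place of 56. The share of all genes called with this gate is not given here. Of the 213 cells that this gate took, 45 lay in the precursor-like cluster and were left out. The remaining 89 and 79 cells had median UMIs of 18123 and 16347, against 10140.5 in the ciliated-like cluster, of which only 34 cells were under this limit. Markers of the gate such as Mlf1 and 1110017D15Rik were also at 134 and 153 and at 66.2 and 65.9 CPM in immature neuron-like cells, so the gate holds cells other than the ciliated-like ones.

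**Figure D4:**
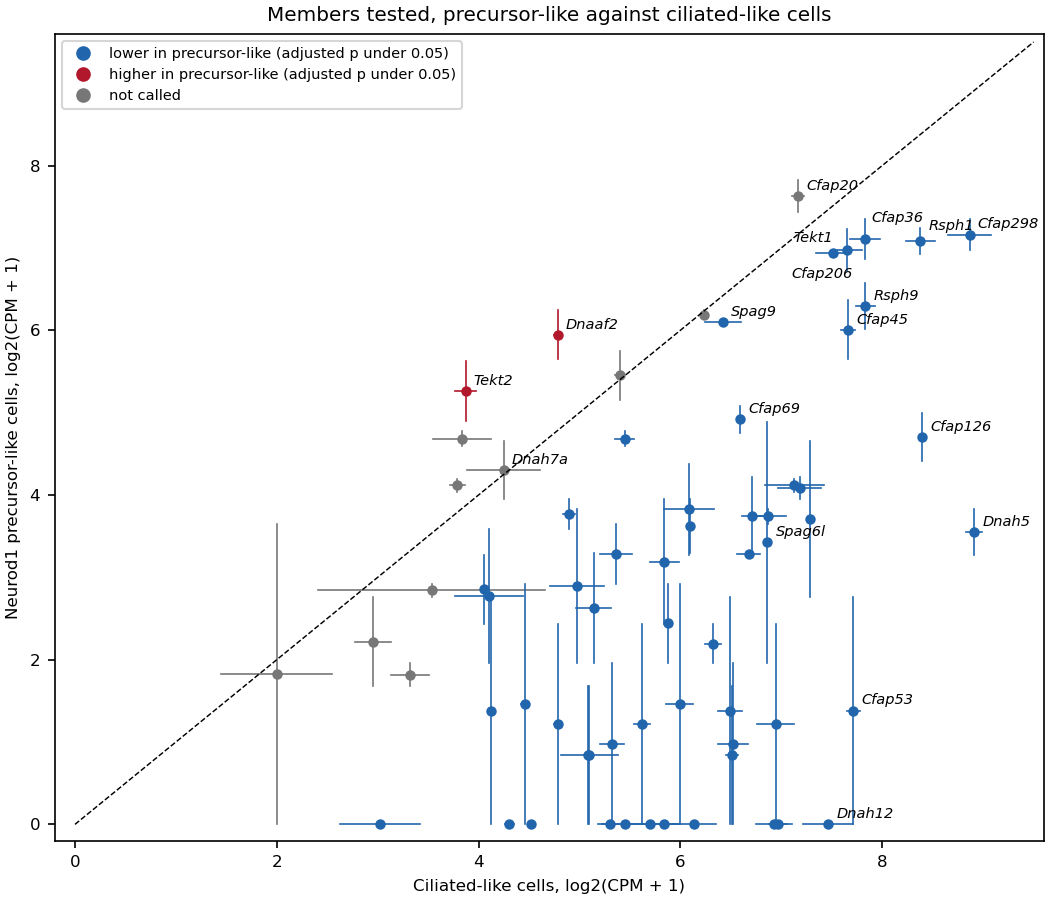
Level of the 66 members tested in ciliated-like cells (x axis) against precursor-like cells (y axis), both as log2(CPM + 1), with points at the mean of 2 libraries, lines to each library and a dashed line of equality. Blue points are lower and red points higher in precursor-like cells at an adjusted p under 0.05 in edgeR, and Dnah12 lies on the x axis with 0 UMIs in precursor-like cells while Tekt1 and Cfap206 lie close under the line.

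Regulators of multiciliated cell formation were tested in the same fits as a list of 15 genes. Against immature neuron-like cells 10 of the 12 tested were higher in precursor-like cells and none lower in edgeR, in DESeq2 or at an unadjusted p under 0.05, and against mature VSN-like cells 10 were higher and 1, Rfx3, lower. Of all genes, 8.42% were higher and 11.5% lower in the first of these comparisons, and 17.6% and 25.3% in the second. Against ciliated-like cells 8 of 15 were higher, where 23.3% of all genes were, and 4 were lower, where 33.2% were. The higher ones included Plk4 (4.74), Cep152 (3.96) and Stil (3.60), which drive the duplication of centrioles in dividing cells too, together with Mcidas (2.24) and Ccno (2.05), which act early in the multiciliated programme. The lower ones were Foxj1 (-3.29), Rfx2 (-1.53), Rfx3 (-0.80) and Ccdc78 (0 UMIs). Foxj1, Mcidas and Ccdc78 were also among the markers that named the ciliated-like cells.

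Mcidas was in 24 of the 93 precursor-like cells and Ccno in 50, at 154 and 162 CPM against 44.9 and 41.8 CPM in ciliated-like cells. Of the 29 intraflagellar transport genes tested against immature neuron-like cells 3 were higher and 1 lower, where 8.42% and 11.5% of all genes were. Their median log2 fold change was -0.04, against -0.07 over all genes tested. Against mature VSN-like cells 3 of 30 were higher and 7 lower, where 17.6% and 25.3% of all genes were. Of axoneme genes outside the 6 families, 7 of 29 were higher and none lower than in immature neuron-like cells, where 8.42% and 11.5% of all genes were. In that list 8 of 36 were higher and 4 lower than in mature VSN-like cells, and none of 43 was higher and 38 were lower than in ciliated-like cells, where 23.3% and 33.2% of all genes were. The counts of none in this list were also 0 with DESeq2 and at an unadjusted p under 0.05. No BBSome gene of 9 passed edgeR or DESeq2 against immature neuron-like cells, 2 had an unadjusted p under 0.05 in edgeR, and 3 were lower than in mature VSN-like cells.

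Between mature apical and basal VSNs, the neurons that express V1R and V2R pheromone receptors, members were called at a share near that of all genes. Of 44 members tested 2 were higher in apical VSN-like cells, where 3.84% of 12722 genes were, and 2 were lower, where 5.52% were. Cfap300 made the largest difference, with 31.2 and 29.4 CPM in apical against 219 and 182 CPM in basal VSN-like cells, a log2 fold change of -2.81 ± 0.15 (SE, adjusted p = 7.9e-05, edgeR). It held a UMI in 10.3% of thinned apical and 39.8% of thinned basal VSN-like cells. Rsph9 was at 323 and 284 CPM against 451 and 452 CPM (-0.66 ± 0.11).

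In the other direction Cfap69 was at 110 and 97.8 CPM in apical against 60.8 and 57.3 CPM in basal VSN-like cells (0.72 ± 0.15), and Cfap206 at 12.4 and 9.69 CPM against 1.05 and 3.37 CPM (2.25 ± 0.54), the latter on 4 UMIs in basal VSN-like cells. Cfap69 lost its call without library 1 of the apical cells. Cfap206 lost its call with DESeq2 and without library 1 of either group. With the library as a block, 8 members were called, 5 higher and 3 lower. The share of all genes called with the block is not given here. Of intraflagellar transport genes, 3 of 30 were lower in apical VSN-like cells and none higher, also none with DESeq2 or at an unadjusted p under 0.05.

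Along the lineage clusters, the members fell into different patterns, described here without a test. Tekt1 was at 29.9 and 43.6 CPM in a first progenitor-like cluster, at 48.8 and 86.2 CPM in a second one with Neurod1, at its highest in the precursor-like cluster, and at 41.3 and 28.0 CPM in the immature cluster that still held Neurod1. In the immature apical and basal clusters it was at no more than 4.77 CPM in any library. A further immature cluster had 2 raised basal and 0 raised apical markers, under the 3 needed for a name. It held Gnao1 at 424 and 539 CPM and Meis2 at 43.9 and 57.0 CPM, and Tekt1 was at 5.17 and 0 CPM there. Cfap45 was also highest in the precursor-like cluster and at 11.8 and 15.7 CPM in the immature cluster with Neurod1. Cfap206, at 47.2 and 45.5 CPM in that cluster, stayed detectable later. It was at 24.1 and 15.2 CPM in the second immature apical cluster and at 7.76 and 46.7 CPM in the cluster with 2 raised basal markers.

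Tekt2 had a second peak: after 44.8 and 27.5 CPM in the precursor-like cluster and 11.8 and 13.99 CPM in the next, it was at 55.2 and 45.6 CPM in the second immature apical cluster and at 0.355 and 0.466 CPM in mature VSN-like cells. Dnah14 was at 23.8 and 17.7 CPM in the first immature apical cluster and at 0 and 2.75 CPM in the precursor-like cluster. Cfap100, by contrast, had 1 UMI in the immature cluster with Neurod1, 4 in the first immature apical cluster and none in the immature basal cluster, against 274 and 204 UMIs in mature VSN-like cells. Spag5, the spindle gene, was at 25.2 and 54.5 and at 43.3 and 74.7 CPM in the progenitor-like clusters, which also held the cycling gene Mki67, and at 2.13 and 11.01 CPM in precursor-like cells.

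**Figure D5:**
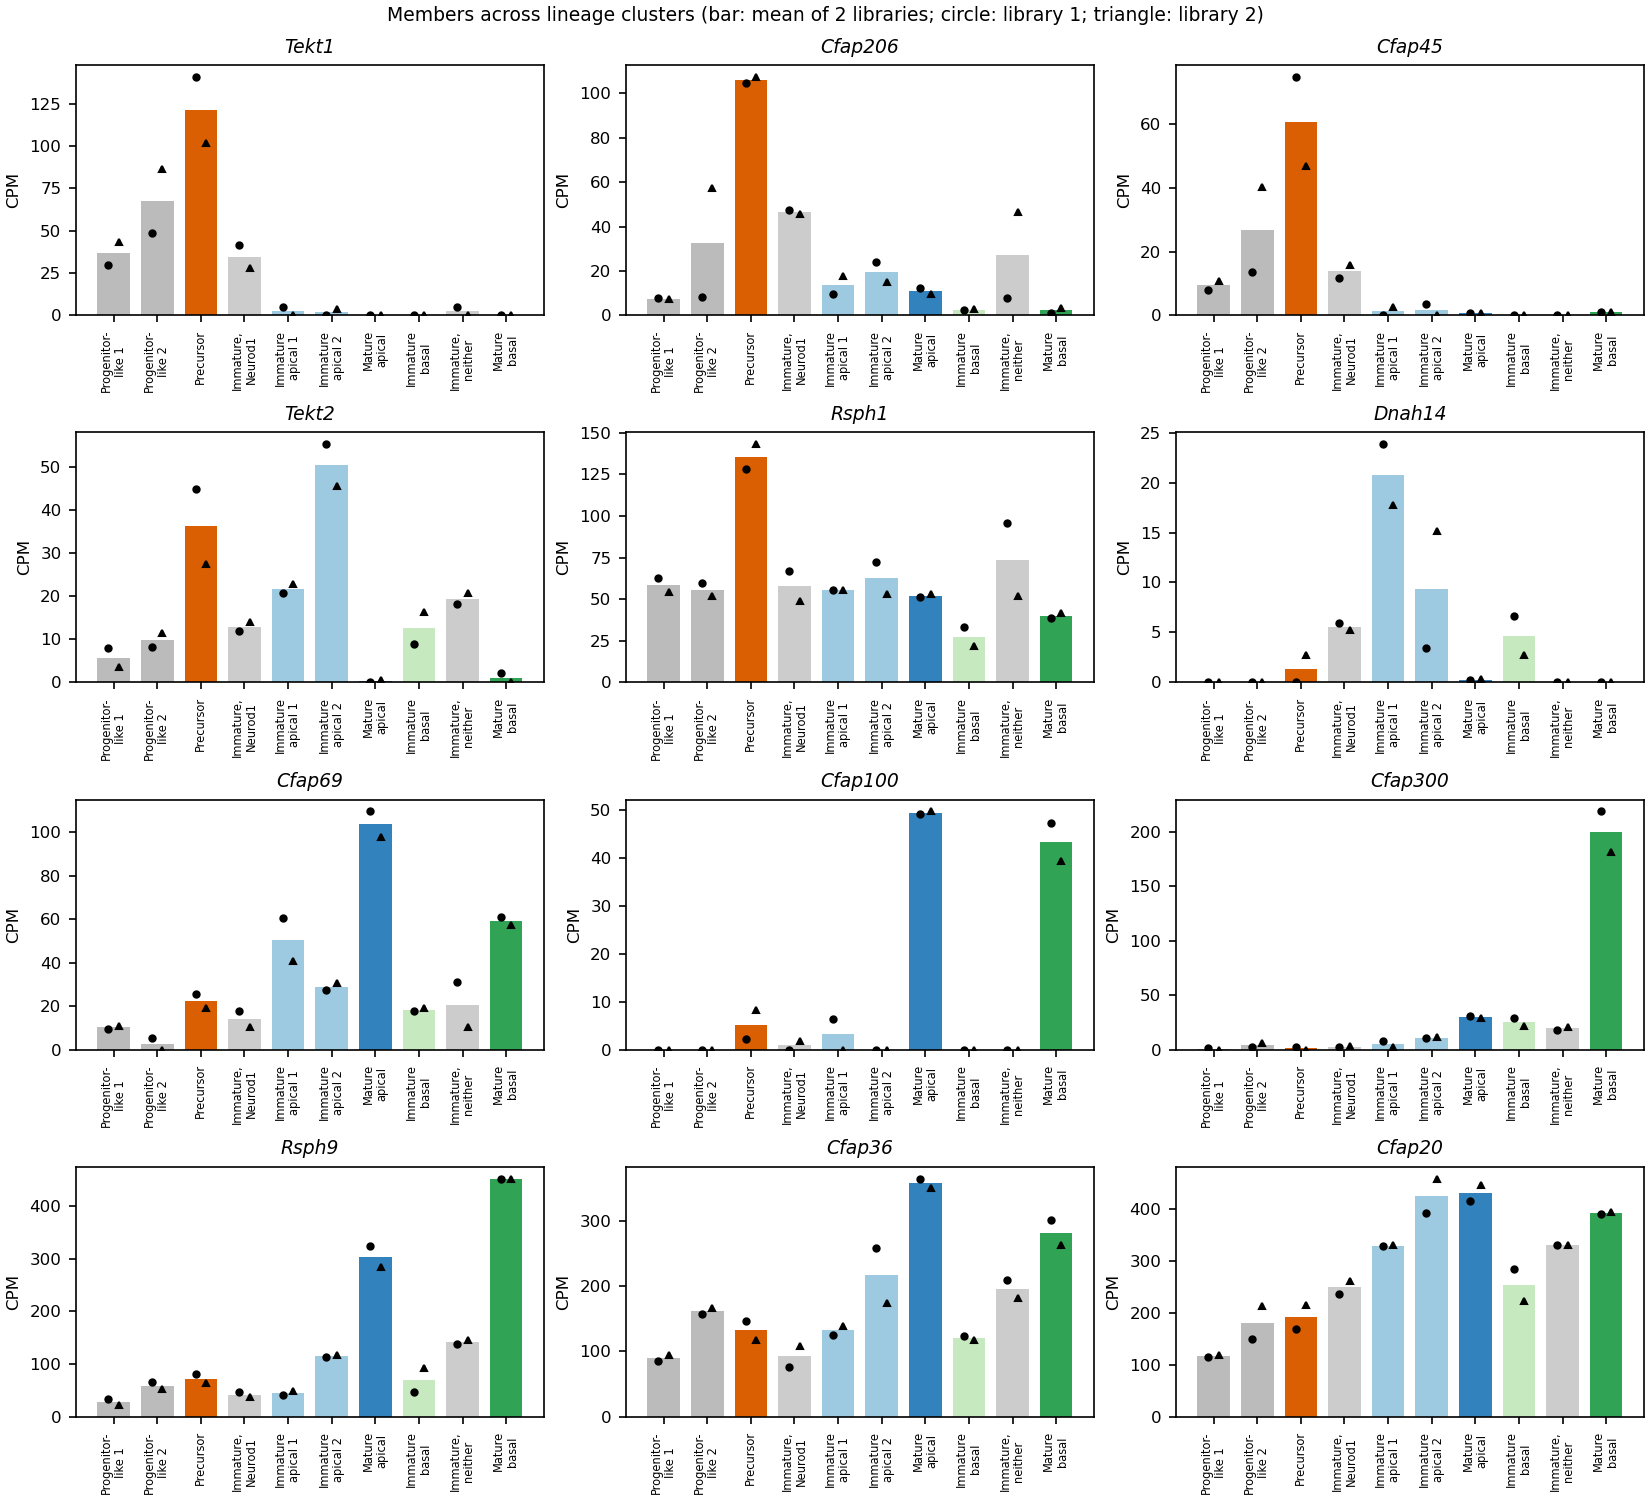
Levels of 12 members in CPM along lineage clusters, with bars at the mean of 2 libraries, circles for library 1 and triangles for library 2; the y axis differs between panels. Tekt1, Cfap206, Cfap45 and Rsph1 are highest in the precursor cluster, and Cfap69, Cfap100, Cfap300, Rsph9 and Cfap36 in a mature VSN-like cluster. The immature cluster marked neither had 2 raised basal markers and 0 raised apical ones, under the 3 needed for a name.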

How the data were processed

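Single cells of P60 mouse VNO were captured with 10x 3′ chemistry, and per the labels and the study's methods the authors made gene counts with Cell Ranger 4 on mm10, joined both libraries and deposited raw UMI counts per gene and barcode, with other columns giving gene names and barcodes. From these deposited counts, cells with 200 to 9000 genes were kept under a mitochondrial limit of 5% as in the study, and clustered with Seurat 5.3.0 (2000 variable genes without members, resolution 0.8). Lineage clusters were clustered again. Names needed 3 raised markers. The limit of 20% for ciliated-like cells, their need of 6 raised markers, the left-out precursor cells of the marker gate and Clca3b were chosen after seeing the data. Scrublet in scanpy 1.11.5 called 284 and 108 doublets (2.43% and 1.05%), which were kept, and left out as an alternative.

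UMIs were summed per library and group. Genes with at least 10 UMIs were tested with edgeR 4.0.16 (TMM, quasi-likelihood, Benjamini-Hochberg adjusted p under 0.05), with DESeq2 1.42.0 as an alternative. In simulated counts with 200 changed genes, edgeR found 58% of genes changed by 2 on the log2 scale for precursor-like against immature neuron-like cells, with 5.67% of its calls false, 42% with 14.8% false against mature VSN-like cells, 74% with 6.34% false for ciliated-like against sustentacular-like, 82% with 4.46% false for precursor-like against ciliated-like and 64% with 7.86% false for apical against basal cells. Sums of 1 number come from the same library, and their deviations correlated across genes at 0.038 to 0.10. Members and gene lists were chosen with earlier results of these data known. Members named were the up to 10 in each direction with the largest change past the threshold and the same sign in both libraries, the most abundant of each family per group, near copies, and Spag and Dnaaf genes with other roles. Intervals are exact binomial (95%). Promoters came from RefSeq (GRCm38.p6), and 63 members matched.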

Additional observations from a re-analysis of the deposited data

How the results depend on the processing

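The count of members called in precursor-like against immature neuron-like cells was 8 with DESeq2 and ranged from 5 to 10 when a library was left out. For ciliated-like against sustentacular-like cells it was 41 at the 5% mitochondrial limit without doublets (added after seeing the data). For precursor-like against ciliated-like cells it was 37 under that setting and 13 with ciliated cells taken by 4 markers. For mature apical against basal VSN-like cells it was 8 without a filter on low counts, 8 with the replicate block, and 7 at mitochondrial limits of 10% and of 20%. The replicate block changed none of the other 4 counts. The count of members on in ciliated-like cells was 27 at the 5% limit without doublets. In precursor-like cells it was 26 and 8 at shares of 2% and 10%, 28 without thinning, and 13 to 21 when a library was left out. In immature neuron-like cells it was 16 and 6 at those shares, 6 after thinning to 1500 UMIs and 23 without thinning, and in mature VSN-like cells 28 without thinning. Over the named members' log2 fold changes and their alternatives, 751 kept their direction and side of the threshold, 65 lost the call and none reversed. The shares of all genes under these alternatives are not given here. Whether the members moved apart from other genes cannot be told from these counts. The causes were not tested. With 2 libraries, 93 precursor-like cells and as few as 363389 UMIs per sum, members with under 10 UMIs could not be tested.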
